A study of Arabidopsis thaliana with 17 samples.

Results

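The 5 early enzyme genes of the Arabidopsis flavonoid pathway were followed through peaks of DNase I cutting in seed coat, root and flower nuclei: TT4 (AT5G13930), TT5 (AT3G55120), F3H (AT3G51240), TT7 (AT5G07990) and DFR (AT5G42800). They were chosen by name, as 5 of 27444 protein-coding genes, and not by a rule on their peaks, though earlier results of these data were known. A peak was given to a gene when its centre lay between 2000 bp upstream of the transcription start site (TSS) and 500 bp past the 3′ end of the gene.

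DNase I cuts DNA where it is not wrapped up in nucleosomes, so a peak marks open chromatin, such as a promoter or an enhancer. Nuclei came from INTACT lines in the Col-0 background, in which a nuclear envelope fusion protein (NTF) is biotinylated by the ligase birA and the tagged nuclei are captured on beads. All lines carried ACT2:birA, and the line differed with the tissue. Seed coat nuclei came from the GL2 line, taken from siliques 7 or 4 days past anthesis (DPA). Root hair nuclei came from the ADF8 line at 7 days. Root non-hair nuclei came from the GL2 line, at 7 days in replicate 2 and at 10 days in replicates 1, 3 and 4. Whole root nuclei came from the UBQ10 line at 7 days, and open and unopened flower nuclei from the same UBQ10 line. A capture of this kind yields the nuclei in which the promoter is active, and the sources used here do not state how pure each capture was.

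At a common mark of 6.8M, read here as a shared number of reads, there were 11 peak lists. The seed coat lists were the 7 DPA pool (replicates 1 and 2), 4 DPA replicate 1 and the 4 DPA pool (replicates 3 and 4). The root lists were hair replicate 1 and the hair pool (replicates 2 and 3), non-hair replicates 1 to 4 and whole root replicates 1 and 2. They held between 24751 and 30110 nuclear peaks of 150 bp each. Since no read counts are given, each list is the unit of the tests, though some lists are pools. The root lists differ in cell type, line and seedling age, and the seed coat lists in stage. The p values thus measure a spread between lists that mixes these differences with technical ones, and the lists are not replicates of a single condition. Among genes fixed as markers, the root hair list had peaks at 2 to 3 of 6 genes in the seed coat lists and at 6 of 6 in every root list. The GL2 gene itself had a peak in all 11 lists, with a mean percentile of 99.8 in seed coat and 99.9 in non-hair lists, against 71.2 in hair lists. The other non-hair markers did not all follow it. CPC had 98.95 in hair and 97.9 in non-hair lists, WER 8.08 and 7.19, and MYB23 0 and 4.84, and WER and MYB23 had no seed coat peak. All 5 seed coat epidermis markers had peaks in every seed coat and root list. Inner seed coat markers had peaks at 3 to 4 of 4 in seed coat and 1 to 2 in root lists. Embryo markers had 2 to 3 of 4 and 1 to 2, and endosperm markers 1 to 2 of 3 in both. The seed coat lists also had peaks at 5 of 5 flower markers and 3 to 4 of 4 silique wall markers (summed best percentiles 354 to 431 and 272 to 312), against 1 to 3 and 0 to 1 in the root lists (35.0 to 85.6 and 0 to 43.4). The flower markers AG and AP3 and the silique wall markers SHP1, SHP2 and IND had no peak in any root list. This difference in markers moves with every seed coat against root result below, and its part in them was not tested.

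Flavonoids are built from a phenylpropanoid and malonyl units. Chalcone synthase, encoded by TT4, makes the first flavonoid, a chalcone, and chalcone isomerase, encoded by TT5, closes its ring. Flavanone 3-hydroxylase (F3H) and the cytochrome P450 encoded by TT7, a flavonoid 3′-hydroxylase, add hydroxyl groups, and the products feed both flavonols and the later pigments. Dihydroflavonol reductase (DFR) commits them to anthocyanins and to proanthocyanidins, the tannins of the seed coat, and mutants in these genes have pale seed coats. In Arabidopsis TT4, TT5 and F3H are known targets of the flavonol MYB factors MYB11, MYB12 and MYB111, and DFR of the TT2, TT8 and TTG1 complex.

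The sequences that the results turn on are peak intervals of 150 bases, each taken from a site, a run of overlapping peaks merged across the 11 lists. For each site the interval that most lists share is printed, which need not be its centre. They were read from the RefSeq copy of TAIR10 in the direction of the gene. Capitals mark matches, on either strand, to the G-box (CACGTG), the ACGT core, the E-box (CANNTG), the MYB elements AC-I (ACCTACC) and AC-II (ACCAACC) and the W-box (TTGAC). A G-box holds an ACGT core and is itself an E-box, so these matches can overlap. Sites that hold untranslated bases are described but not printed. Shown first are the pair of sites upstream of TT7 that all seed coat lists and no root list held (chr5:2558181-2558330 and chr5:2558941-2559090, plus strand), its intron site, open mainly in seed coat (chr5:2561201-2561350, plus strand), and the coding-exon site open in every list (chr5:2562161-2562310, plus strand).
TT7, 2102 bp upstream: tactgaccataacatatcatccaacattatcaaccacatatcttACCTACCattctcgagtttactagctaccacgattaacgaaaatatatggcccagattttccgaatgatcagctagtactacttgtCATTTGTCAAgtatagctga
TT7, 1312 bp upstream: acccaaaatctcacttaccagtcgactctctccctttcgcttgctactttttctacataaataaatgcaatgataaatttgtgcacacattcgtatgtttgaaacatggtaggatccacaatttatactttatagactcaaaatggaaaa
TT7, intron: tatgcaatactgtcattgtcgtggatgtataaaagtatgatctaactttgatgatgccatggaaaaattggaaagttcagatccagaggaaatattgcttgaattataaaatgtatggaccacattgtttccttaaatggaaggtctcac
TT7, coding exon: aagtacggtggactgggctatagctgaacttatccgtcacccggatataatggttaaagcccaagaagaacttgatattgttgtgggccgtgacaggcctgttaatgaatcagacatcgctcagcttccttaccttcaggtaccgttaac
The remaining ones are the DFR promoter, which ran the other way (chr5:17166061-17166210, minus strand), the F3H promoter, open in every list (chr3:19024901-19025050, plus strand), the TT5 upstream site (chr3:20432321-20432470, minus strand) and the TT4 upstream site (chr5:4487761-4487910, plus strand).
DFR, 114 bp upstream: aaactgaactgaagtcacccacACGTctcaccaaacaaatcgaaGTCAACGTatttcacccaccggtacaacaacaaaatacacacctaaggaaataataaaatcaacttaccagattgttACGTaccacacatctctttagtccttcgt
F3H, 186 bp upstream: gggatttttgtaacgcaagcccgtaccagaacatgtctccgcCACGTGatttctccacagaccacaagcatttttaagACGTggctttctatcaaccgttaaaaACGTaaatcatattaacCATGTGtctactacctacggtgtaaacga
TT5, 788 bp upstream: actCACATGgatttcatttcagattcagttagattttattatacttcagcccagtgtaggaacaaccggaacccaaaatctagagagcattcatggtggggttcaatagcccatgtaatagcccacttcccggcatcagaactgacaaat
TT4, 570 bp upstream: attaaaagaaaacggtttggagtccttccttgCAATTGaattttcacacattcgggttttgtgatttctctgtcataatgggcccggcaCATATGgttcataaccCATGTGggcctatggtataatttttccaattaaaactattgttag

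In these printed intervals the F3H promoter holds a G-box and 2 further ACGT cores, and the DFR promoter holds 3 ACGT cores and a W-box but no G-box. The distal TT7 interval holds the AC-I element, and the other 3 printed TT7 intervals hold none of the 6 motifs. To compare with all sites, motifs were also counted in the central 150 bases of each site, which can differ from the printed interval. Among all 23 sites in the gene windows, 4 held a G-box (17.4%, against 7.24% of all 49442 sites), 12 an ACGT core (52.2%, against 38.7%) and 15 an E-box (65.2%, against 46.3%). AC-I was found in 2 (8.7%, against 1.11%), both in 5′ UTR sites, of TT4 and of TT5. AC-II was found in 0 (against 2.55%) and the W-box in 8 (34.8%, against 36.5%). The sites had a median GC content of 36%, against 34% over all sites. In the most shared peak intervals of the same 23 sites the counts were 5 for the G-box, 12 for the ACGT core, 16 for the E-box, 2 for AC-I, 0 for AC-II and 7 for the W-box. These are matches of letters and no test was made of them.

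**Figure D1:**
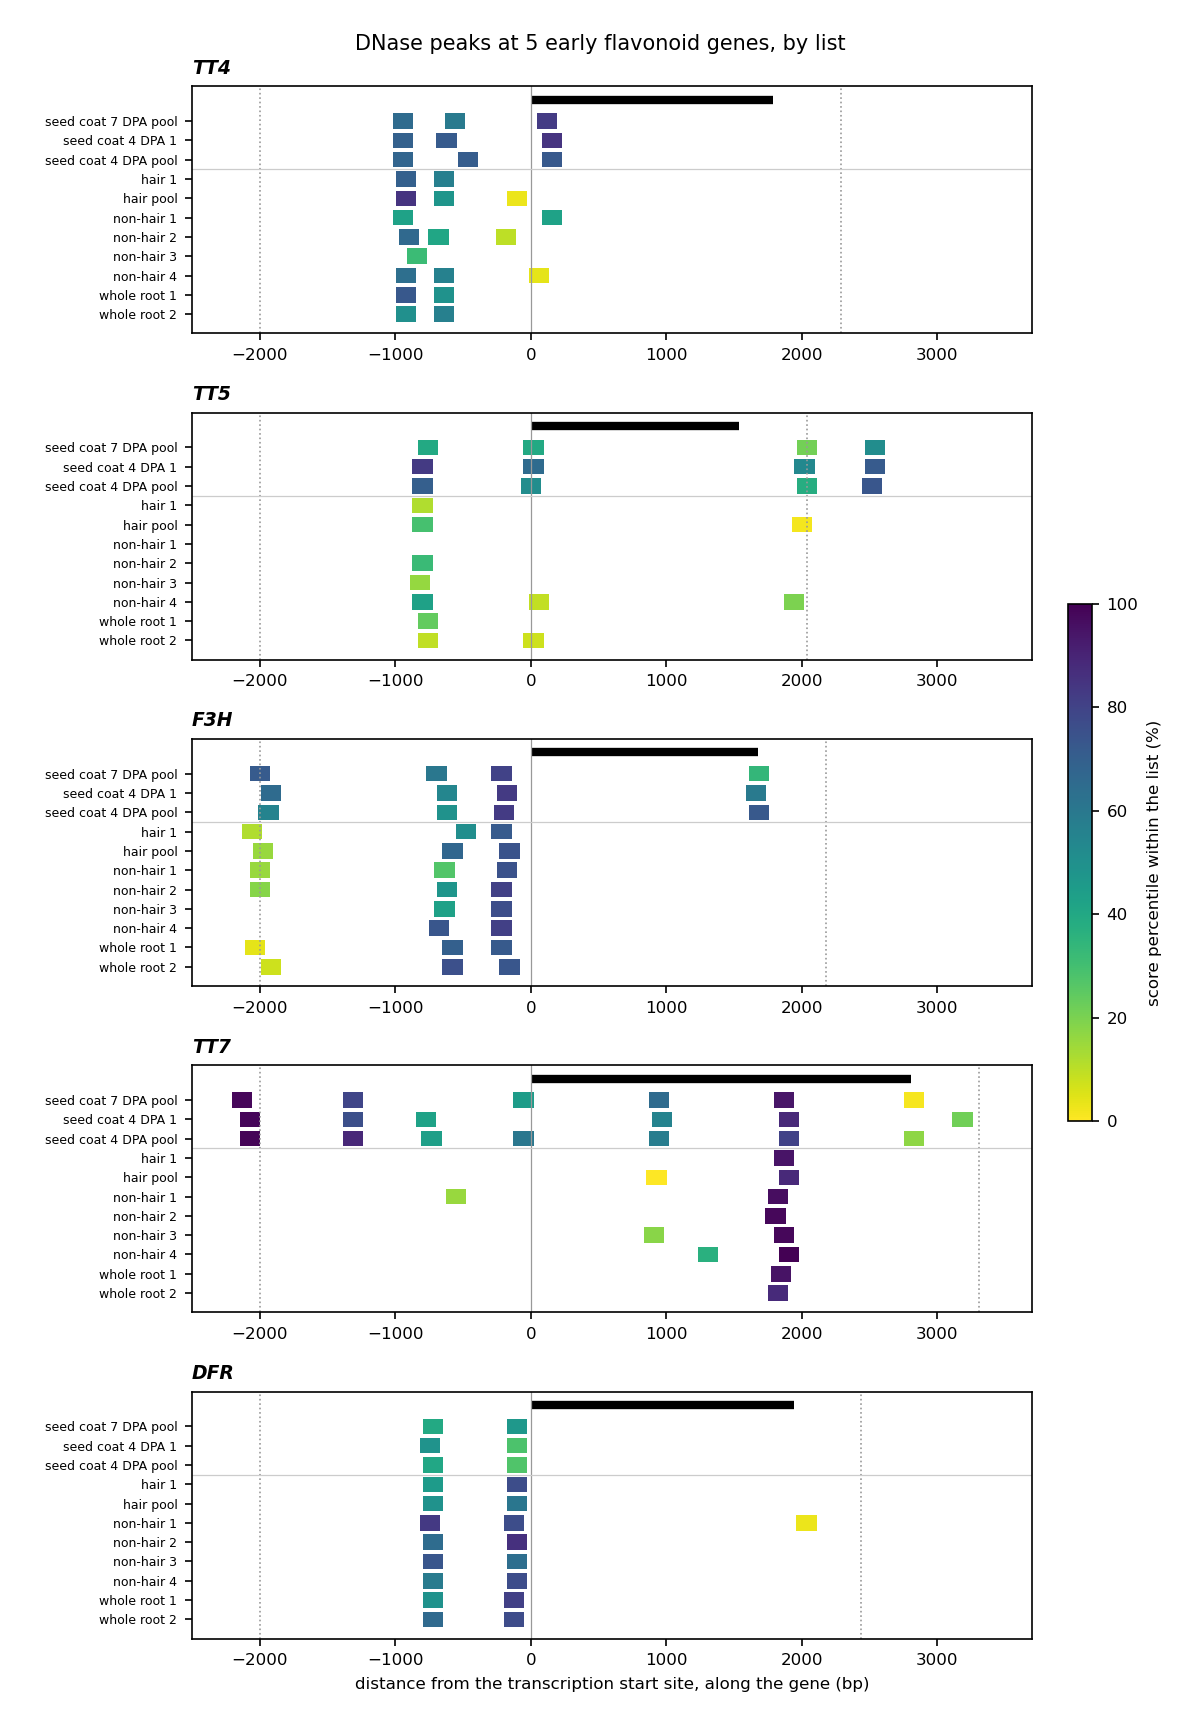
Peaks of the 11 lists with the 6.8M mark at the 5 genes, each aligned to its TSS at 0 bp and read along the gene, with the 3 seed coat lists above the 8 root lists. Each bar is a peak of 150 bp, shaded by its score percentile within its list (%), the black bar is the gene, and dotted lines bound the window. TT7 carries dark peaks upstream in the seed coat lists that the root lists lack, and DFR has its promoter peak in all 11 lists, lighter in the seed coat lists.

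Each peak was ranked by its deposited score within its own list, from 0 to 100%, and a gene took the percentile of its highest-ranking peak, or 0 where no peak was listed. A high rank can mean open chromatin in more of the captured nuclei or more cutting in each nucleus, which cannot be told apart. Seed coat and root lists were compared with an exact two-sided permutation test over the 11 lists (165 labellings, smallest possible p 0.00606), adjusted by Benjamini-Hochberg over all 27444 genes. Of the 5 genes, TT5 was called higher and DFR lower in seed coat, and TT4, F3H and TT7 were not called. Over all genes, 16.8% were called higher and 11.4% lower, so this count of calls is near what the whole genome gave. Without adjustment, TT5, F3H and DFR had an exact permutation p under 0.05, 3 of 5, against 38.6% of all genes. The percentiles of single lists are plotted below by tissue.

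**Figure D2:**
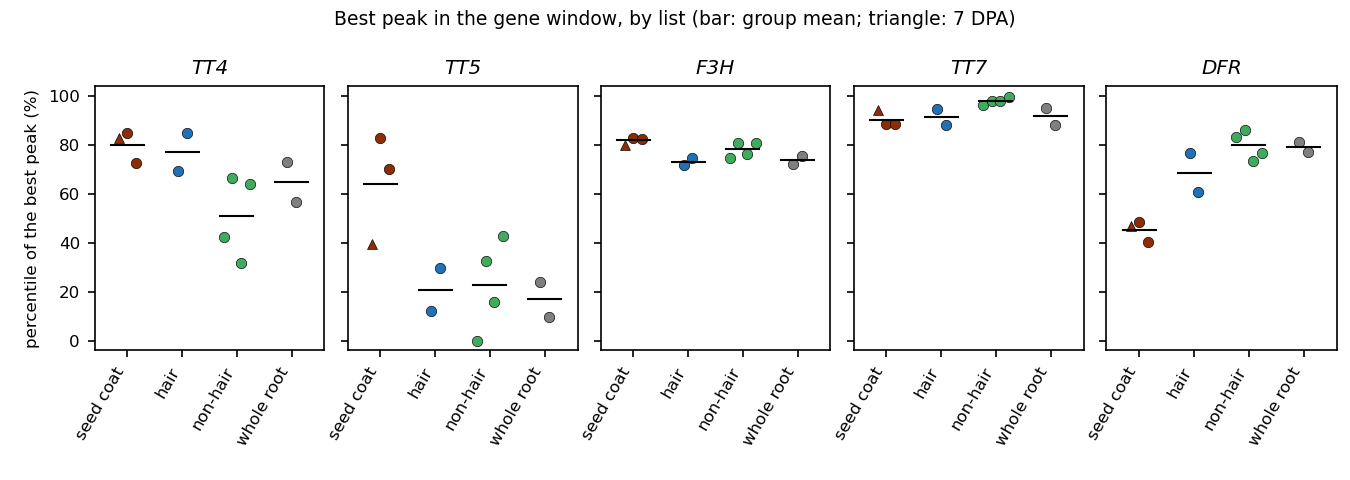
Percentile of the best peak in the gene window (%, vertical axis) in each list, with seed coat, hair, non-hair and whole root lists from left to right. Points are lists (triangles 7 DPA), and bars are group means. The 3 seed coat values of DFR, between 40.4 and 48.6, sit below all 8 root values, between 60.8 and 86.0.

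DFR had a lower-ranking best peak in the seed coat lists, while the base pairs of its window covered by peaks, given below, were not called. Its best peak stood at the percentiles 46.8, 48.6 and 40.4 in the 7 DPA pool, 4 DPA replicate 1 and 4 DPA pool. In the hair lists it stood at 76.6 and 60.8, in the non-hair lists at 83.3, 86.0, 73.3 and 76.6, and in the whole root lists at 81.2 and 77.3. In 4 DPA replicate 1, the 4 DPA pool and non-hair replicates 1 and 3 it was a site 734 bp upstream. That site lies in the 5′ UTR of the neighbour IPK1, and in the other lists the best peak was at the DFR promoter. No seed coat list reached the lowest root list. The means were 45.3 ± 4.32 in seed coat (SD, n = 3 lists) and 76.9 ± 7.71 in root (n = 8), a difference of -31.6 points (exact permutation p = 0.00606, adjusted 0.0252). Of the 5 genes, DFR alone had lists that do not overlap. Over all genes 10.8% had such lists with seed coat lower and 16.3% with seed coat higher. With any seed coat list left out, 2 remain, and the adjusted exact permutation p is then 0.0739 to 0.0836. It was 0.324 with the pooled lists left out and 0.447 in the lists with no mark. In each of these runs the unadjusted p of DFR was the smallest that the labellings allow, so no gene could be called.

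At DFR 2 sites were present in all 11 lists. The site 114 bp upstream of the TSS, the promoter printed above, had the percentiles 46.8, 28.2 and 27.4 in the seed coat lists. In hair it had 76.6 and 60.8, in non-hair 76.7, 86.0, 64.3 and 76.6, and in whole root 81.2 and 77.3. Every seed coat list was again below every root list, with a difference of -40.8 points (exact permutation p = 0.00606, adjusted over 49442 sites 0.0254), and 11.2% of all sites were called lower. The test by site was added after the values were seen. The other site, 734 bp upstream, lies in the 5′ UTR of IPK1, an inositol phosphate kinase gene read in the other direction with its TSS 670 bp away. It had 39.7, 48.6 and 40.4 in the seed coat lists and 45.5 to 83.3 in the root lists, which overlap (difference -18.3, adjusted p = 0.111, exact permutation). Non-hair replicate 1 alone had a peak 2036 bp downstream, at percentile 3.06.

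TT5 was called higher in seed coat. Its best peak stood at 39.7, 83.0 and 70.1 in the 7 DPA pool, 4 DPA replicate 1 and 4 DPA pool. The hair lists gave 11.9 and 29.7, the non-hair lists 0, 32.4, 16.0 and 42.7, and the whole root lists 23.9 and 9.74. Both 4 DPA lists stood above all root lists, while the 7 DPA pool lay below non-hair replicate 4. The means were 64.3 ± 22.2 in seed coat (SD, n = 3 lists) and 20.8 ± 13.9 in root (n = 8), a difference of 43.5 points (exact permutation p = 0.0121, adjusted 0.043). The call was kept in 1 of 11 runs that left out a list, the run without non-hair replicate 4. In the runs without a seed coat list no gene could be called. With only the peaks above each list's median score the TT5 call was not kept (adjusted p = 0.19, exact permutation).

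The sites behind this value lay on both sides of TT5. The site 788 bp upstream gave or shared the best peak in every list that had a peak, and it was listed in 3 of 3 seed coat and 7 of 8 root lists. The site at the TSS, centred 32 bp inside the 5′ UTR, had 39.7, 65.3 and 51.4 in the seed coat lists. In the root lists it had 9.15 in non-hair replicate 4, 7.75 in whole root replicate 2 and no peak in the other 6. The site 1992 bp downstream of the TSS, past the gene's end, had 21.3, 53.2 and 37.7 in the seed coat lists, against 1.73 in the hair pool, 19.9 in non-hair replicate 4 and no peak in the other 6 root lists. At both, every seed coat list was above every root list (differences 50.1 and 34.7, adjusted exact permutation p = 0.0254 each). The last of these straddles the end of the window, with peaks in the 4 DPA pool and 7 DPA pool centred just outside it. In the lists with no mark, the site at the TSS had 19.1 in non-hair replicate 1 and 18.5 in whole root replicate 1, and the downstream site 12.9 and 6.25. There 4 DPA replicate 1 had 63.4 and 58.4 at the same sites, and 7 DPA replicate 1 had no peak at either.

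TT4 was listed as open in every list, and its best peak did not differ by the test. It stood at 82.7, 84.9 and 72.5 in the 7 DPA pool, 4 DPA replicate 1 and 4 DPA pool. It stood at 69.6 and 85.0 in hair, 42.4, 66.4, 31.7 and 64.0 in non-hair, and 72.9 and 56.7 in whole root lists. The hair pool lay just above the highest seed coat value, so the groups overlap. The means were 80.0 ± 6.62 in seed coat (SD, n = 3 lists) and 61.1 ± 17.1 in root (n = 8), and the difference of 18.9 points had an adjusted p of 0.205 (exact permutation).

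The best TT4 peak did not lie at the same site in the seed coat lists and in most root lists. In all 3 seed coat lists it was the site at the start of the gene, centred 110 bp inside the 5′ UTR, with 82.7, 84.9 and 72.5. That site had 42.4 in non-hair replicate 1, 4.18 in non-hair replicate 4 and no peak in the other 6 root lists, a difference of 74.2 points (exact permutation p = 0.00606, adjusted over all sites 0.0254). No root list came near the seed coat lists there, though in non-hair replicate 1 it tied as best peak with the site 890 bp upstream. The best peak of most root lists was the site 890 bp upstream, at 31.7 to 85.0, where seed coat lists had 65.4, 69.3 and 67.7 (adjusted p = 0.708, exact permutation). That site lies only 60 bp upstream of the TSS of AT5G13920, a gene read in the other direction whose TSS is 950 bp from that of TT4. The site 570 bp upstream, printed above, lies between both genes, with 59.2, 71.6 and 70.7 in the seed coat lists and 0 to 57.0 in the root lists (difference 28.7, adjusted p = 0.142, exact permutation). A weak site 140 bp upstream was listed in the hair pool at 2.87 and in non-hair replicate 2 at 9.81, and in 0 of 3 seed coat lists.

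F3H was open at its promoter everywhere. Its best peak stood at 80.2, 83.0 and 82.7 in the 7 DPA pool, 4 DPA replicate 1 and 4 DPA pool. It stood at 71.8 and 74.5 in hair, 74.6, 80.7, 76.5 and 80.9 in non-hair, and 72.2 and 75.6 in whole root lists. Non-hair replicates 2 and 4 lay just above the lowest seed coat list. The means were 81.9 ± 1.52 in seed coat (SD, n = 3 lists) and 75.9 ± 3.44 in root (n = 8), a difference of 6.10 points (exact permutation p = 0.0303, adjusted 0.087). In all but whole root replicate 2 the best peak was the G-box promoter site printed above, 186 bp upstream.

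The call at F3H was in the extent of open chromatin over the whole window, counted as the base pairs covered by peaks. The seed coat lists covered 529, 600 and 589 bp, against 319 and 399 bp in hair, 379, 379, 300 and 300 bp in non-hair, and 339 and 450 bp in whole root lists. The mean difference was 215 bp (573 ± 38.2 in seed coat, SD, n = 3, and 358 ± 53.0 in root, n = 8; exact permutation p = 0.00606, adjusted 0.0428). With a window from 1000 bp upstream to the 3′ end it fell to 78.7 bp, so most of it came from the outer parts of the window. A site at the end of the gene, in its 3′ UTR and centred 1674 bp from the TSS, was in all 3 seed coat lists, at 33.9, 59.0 and 72.5, and in 0 of 8 root lists, and it was also listed in unopened flowers, at 12.6. The site 1986 bp upstream, in the 3′ UTR of the neighbour AT3G51230, had 71.6, 65.3 and 55.3 in the seed coat lists and 0 to 18.1 in the root lists (difference 55.0, adjusted exact permutation p = 0.0254). It straddles the window's edge, and some of its root peaks are centred outside. In the lists with no mark its seed coat and root values overlapped. They were 33.3 in 7 DPA replicate 1 and 64.2 in 4 DPA replicate 1, against 13.1 in hair, 34.8 in non-hair and 14.5 in whole root replicate 1. Open flowers had 27.1 there and unopened flowers 60.5. The site 586 bp upstream, between the sites above, was in all 11 lists and overlapped between tissues (60.3, 54.2 and 49.4 in seed coat, 27.1 to 75.6 in root).

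TT7 had the widest difference of the 5 genes in open base pairs, while its best peak was not called. The seed coat lists covered 750, 753 and 903 bp of its window, against 150 and 300 bp in hair, 300, 150, 300 and 300 bp in non-hair, and 150 and 150 bp in whole root lists. The mean difference was 577 bp (802 ± 87.5 in seed coat, SD, n = 3, and 225 ± 80.2 in root, n = 8; exact permutation p = 0.00606, adjusted 0.0428). Over all genes 7.88% were called higher and 6.28% lower in open base pairs. TT7 and F3H were the 2 of 5 called, both higher, and the same 2 had an unadjusted p under 0.05 (24.6% of all genes) and lists that do not overlap (8.21% of all genes higher, 6.86% lower), while TT4, TT5 and DFR were not called (adjusted p = 0.422, 0.216 and 1, exact permutation). TT4 covered 450 bp in each seed coat list and 150 to 450 bp in root lists, TT5 covered 372, 392 and 372 bp and 0 to 450 bp, and DFR covered 300 bp in every list except non-hair replicate 1, which had 450 bp. The F3H and TT7 calls were lost in 11 of 11 runs that left out a list, with adjusted exact permutation p between 0.0534 and 0.142, and for a window from 1000 bp upstream to the 3′ end (0.0553 each). In that shorter window the mean difference was 313 bp at TT7 and 78.7 bp at F3H. In each of these runs both genes had the smallest p that the labellings allow (0.00606 to 0.0222, exact permutation). Its adjusted value was over 0.05, so no gene could be called, and these runs cannot show whether the calls are stable.

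The best TT7 peak in most lists was not at its promoter but in a coding exon, 1858 bp from the TSS, the exon site printed above. It was listed in all 11 lists, at 94.2, 88.4 and 80.3 in the seed coat lists and 88.2 to 99.7 in the root lists (difference -7.24, adjusted p = 0.125, exact permutation). For the gene as a whole the means were 90.5 ± 3.22 in seed coat (SD, n = 3) and 94.9 ± 4.40 in root (n = 8), a difference of -4.42 points (adjusted p = 0.307, exact permutation). The site 1312 bp upstream was in all 3 seed coat lists, at 79.6, 76.0 and 88.8, and in 0 of 8 root lists. In the flower lists it was listed in unopened flowers, at 12.6. The intron site had 65.4, 55.2 and 57.9 in seed coat lists, against 0.0319 in the hair pool, 17.6 in non-hair replicate 3 and no peak in the other 6 root lists (difference 57.3, adjusted exact permutation p = 0.0254).

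The strongest seed coat peak near TT7 fell just outside the window. It was centred 2102 bp upstream, nearest to the TSS of TT7, and stood at the percentiles 98.2, 98.8 and 99.0 in the seed coat lists, with no peak in any of the 8 root lists. It was thus among the top-scoring peaks of each seed coat list. In the lists with no mark it stood at 97.1 in 7 DPA replicate 1 and 96.8 in 4 DPA replicate 1, which share libraries with the lists above, and no peak was listed there in hair, non-hair or whole root replicate 1 or in either flower list. The promoter of TT7 itself, 52 bp upstream, had 45.1 in the 7 DPA pool, 60.3 in the 4 DPA pool and no peak in 4 DPA replicate 1 or in any root list (difference 35.2, adjusted p = 0.131, exact permutation). In the lists with no mark, however, 4 DPA replicate 1 had a peak at this promoter, at 48.5, and none of the other lists did. Sites 752 bp upstream and 2828 bp downstream of the TSS were listed in 2 of 3 seed coat lists and 0 of 8 root lists.

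Counted over all 5 genes, the windows held 23 sites, of which 6 were in all 11 lists, as were 21.6% of all sites. By site, 8 were called higher in seed coat and 1 lower, and 14 were not called; over all 49442 sites 15.5% were called higher and 11.2% lower. The 8 were spread over 4 of the genes, at TT4, TT5, F3H and TT7, and the lower one was the DFR promoter. Sites in all seed coat lists and in no root list were found at 2 of the 5 genes, F3H and TT7, and 11.6% of all genes had such a site in the window. Sites in all root lists and in no seed coat list were found at 0 of 5, against 10.7% of all genes. Of all sites, 6.01% were seed coat-only and 6.15% root-only. None of these counts rests on expression, which was not measured.

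**Figure D3:**
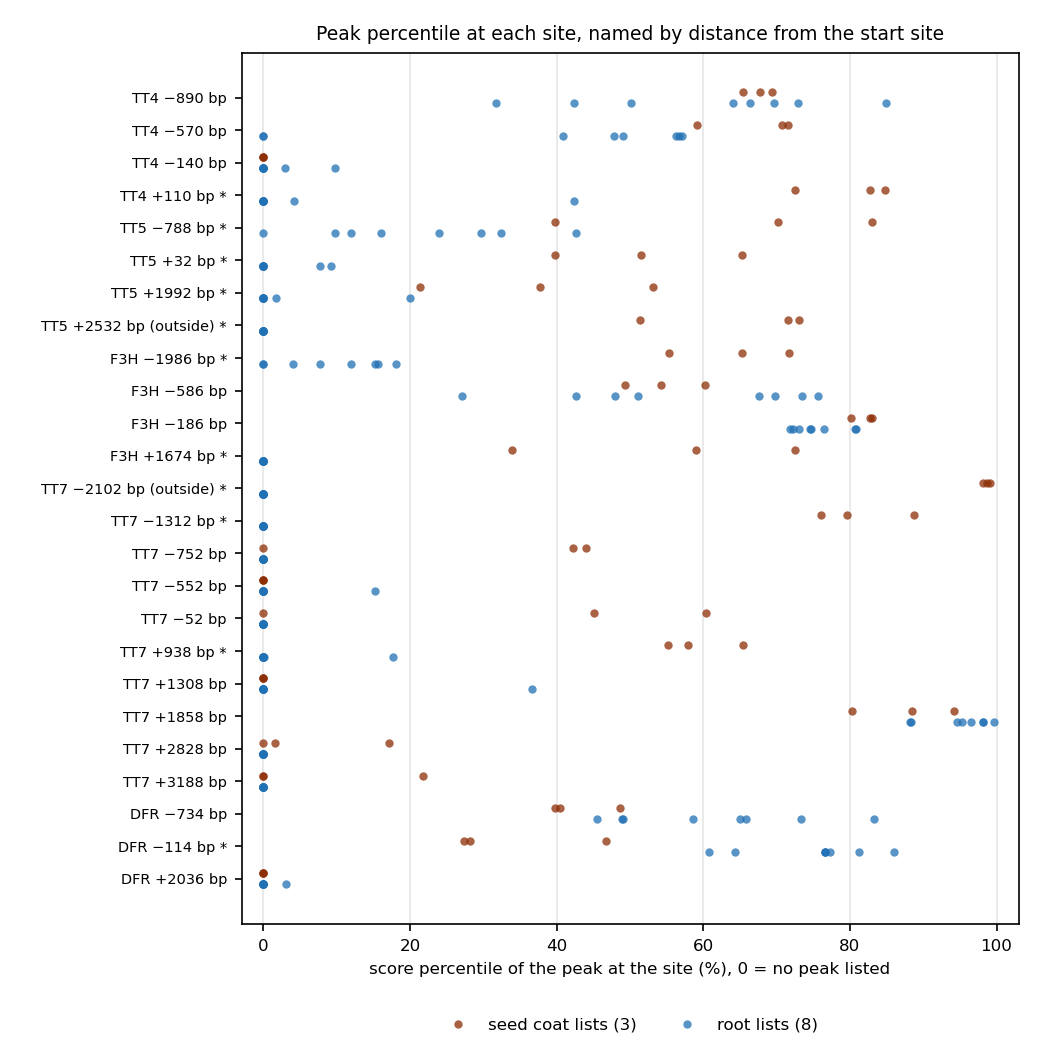
Score percentile (%, horizontal axis) of the peak at each site in the 3 seed coat lists and the 8 root lists, with sites named by gene and distance from the TSS. Each point is a list, 0 means that no peak was listed, "outside" marks sites beyond the window and an asterisk an adjusted p under 0.05. At TT7, 2102 bp upstream, the seed coat points sit between 98.2 and 99.0 and all root points at 0, and at DFR, 114 bp upstream, the seed coat points lie left of the root points.

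Seed coat and non-hair nuclei were captured from the same GL2 line, so that comparison holds the line constant. DFR had 46.8, 48.6 and 40.4 in seed coat lists and 73.3 to 86.0 in the 4 non-hair lists. TT7 had 94.2, 88.4 and 88.8 in seed coat and 96.6 to 99.7 in non-hair lists. For both, no list of one tissue overlapped the other (differences -34.6 and -7.70, exact permutation p = 0.0286 each, the smallest that 35 labellings allow, adjusted 0.111). TT4 lists also did not overlap, with 72.5 to 84.9 in seed coat and 31.7 to 66.4 in non-hair (difference 28.9, p = 0.0857, exact permutation, since that test uses the mean). With these list numbers the smallest adjusted p over all genes was 0.111, so 0% of genes could be called by Benjamini-Hochberg; 25.7% had an unadjusted p under 0.05, as 2 of the 5 genes did. Lists that do not overlap were seen in 19.1% of all genes with seed coat higher and in 14.8% with seed coat lower. TT5 and F3H overlapped (differences 41.5 and 3.76, exact permutation p = 0.0857 and 0.171).

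Between the epidermal cell types of the root, hair lists stood at 69.6 and 85.0 for TT4 and non-hair lists at 31.7 to 66.4, without overlap (difference 26.2). F3H (71.8 and 74.5 in hair, 74.6 to 80.9 in non-hair) and TT7 (94.6 and 88.3 in hair, 96.6 to 99.7 in non-hair) did not overlap either, with hair lower (differences -5.05 and -6.71). Such separation was found in 7.23% of all genes with hair higher and 16.8% with hair lower. TT5 and DFR overlapped (differences -1.97 and -11.1). With 15 labellings the smallest possible p was 0.0667, so 0% of genes had a p under 0.05, with or without adjustment. The hair nuclei were 7 days old, as was non-hair replicate 2 alone of the non-hair lists, and its values (TT4 66.4, F3H 80.7, TT7 98.2) lay on the same side of the hair lists as the others. Its TT4 value was the non-hair one nearest to the hair lists, and its F3H and TT7 values were not. With a single non-hair list at that age, the part of seedling age was not tested. The line cannot be told apart from the cell type here.

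Set in order over the 5 tissues and stages, the genes fell into different orders. TT4 averaged 82.7 in the 7 DPA pool, 78.7 ± 8.76 at 4 DPA (SD, n = 2), 77.3 ± 10.9 in hair (n = 2), 51.1 ± 16.9 in non-hair (n = 4) and 64.8 ± 11.4 in whole root lists (n = 2). Neighbours in that order of level overlapped, with non-hair lowest. DFR averaged 46.8 in the 7 DPA pool, 44.5 ± 5.82 at 4 DPA, 68.7 ± 11.2 in hair, 79.8 ± 5.88 in non-hair and 79.2 ± 2.78 in whole root lists, and hair overlapped neither with the seed coat below it nor with whole root above it, while whole root and non-hair overlapped. TT5 averaged 76.6 ± 9.06 at 4 DPA, above all others, and 39.7 in the 7 DPA pool, which overlapped with non-hair (22.8 ± 18.7). F3H was at most 82.8 ± 0.198 on average, at 4 DPA, and lowest in hair, at 73.1 ± 1.93. TT7 was lowest at 4 DPA, at 88.6 ± 0.235, and highest in non-hair lists, at 98.2 ± 1.27, with the 7 DPA pool, hair and whole root between them.

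Between the seed coat stages there is a single 7 DPA list at the 6.8M mark, so values are given without a test. TT5 stood at 39.7 in the 7 DPA pool, against 83.0 and 70.1 at 4 DPA, the only one of the 5 genes with a gap of over 10 points between the stages. TT7 stood at 94.2 at 7 DPA, against 88.4 and 88.8 at 4 DPA, and F3H at 80.2, against 83.0 and 82.7. TT4 and DFR at 7 DPA (82.7 and 46.8) lay between their 4 DPA values. In the lists with no mark, 7 DPA replicate 1 had no peak at TT5 or DFR, and 4 DPA replicate 1 had 82.4 and 49.8. That 7 DPA list held 13643 peaks and the 4 DPA list 32159, and its depth is unknown, so an unlisted peak there was not detectable in that list and is not shown to be absent.

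Flowers were measured in 1 list each, with no mark and no replicate check. TT7 stood at 96.6 in open and 89.9 in unopened flowers, at its coding-exon site, and F3H at 77.7 and 73.0, at its promoter. TT4 stood at 57.6 and 60.5, at the site near AT5G13920, and its 5′ UTR site, prominent in seed coat, was listed only in unopened flowers, at 7.39. TT5 had 34.5 in open flowers and no peak in the window in unopened flowers, and DFR had 23.3 in open flowers and no peak in unopened flowers. In both lists TT7 stood highest and F3H next, and the lists held 11748 peaks in open and 13098 in unopened flowers.

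**Figure D4:**
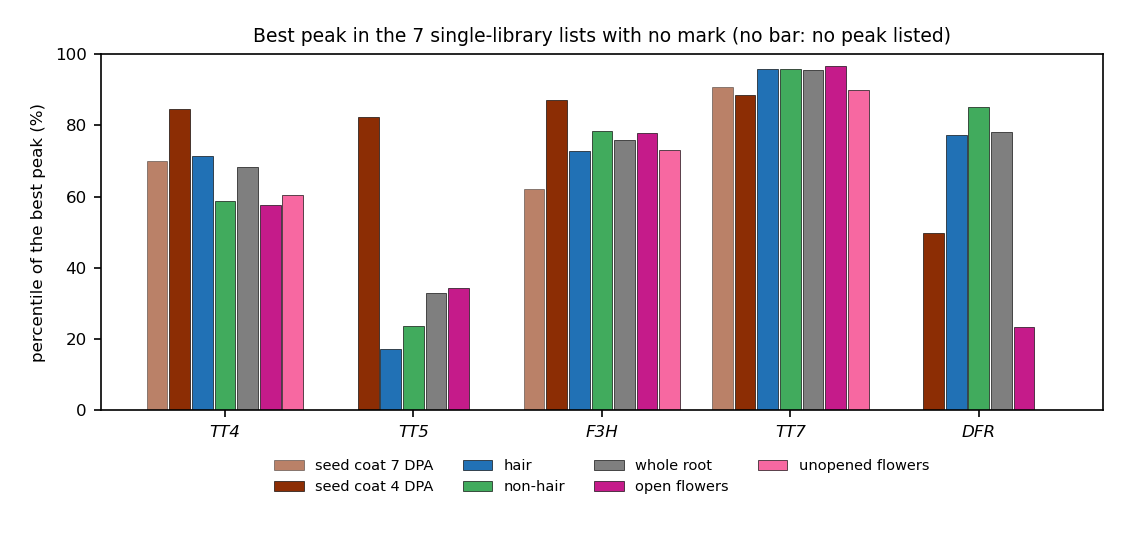
Percentile of the best peak in the window (%, vertical axis) in the 7 single-library lists with no mark, for each gene from left to right seed coat 7 DPA, seed coat 4 DPA, hair, non-hair, whole root, open flowers and unopened flowers. A missing bar means no peak was listed. TT7 reaches 88.5 to 96.6 in all 7 lists, and DFR is missing in seed coat 7 DPA and in unopened flowers.

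The other 37 genes of the pathway that were fixed as a list were described with the same values. In best percentile, 12 were called higher in seed coat, 1 lower and 24 were not called, where 16.8% of all genes were called higher and 11.4% lower, and the median difference was 11.7 points, against 6.10 for the 5 early enzymes and 2.54 over all genes. Of the 15 regulators, 7 were called higher and 0 lower (against the same shares of all genes), with a median difference of 22.0 points. Among them EGL3, a bHLH factor, averaged 90.9 ± 4.60 in seed coat lists and 0.0348 ± 0.0984 in root lists. The MYB factor TT2 averaged 48.7 ± 21.9, the bHLH factor TT8 47.2 ± 30.2, the zinc finger factor TT1 55.5 ± 15.7 and the MADS factor TT16 52.9 ± 15.5 in seed coat lists, and each was listed at 0 in all 8 root lists. These act in proanthocyanidin synthesis in the seed coat.

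Of the flavonol regulators, MYB12 averaged 92.8 ± 6.68 in seed coat and 70.7 ± 9.25 in root lists and MYB111 43.2 ± 14.8 and 0.382 ± 1.08, both called higher. MYB11 overlapped and was not called (92.4 ± 3.99 and 83.9 ± 7.20, adjusted p = 0.205, exact permutation). The same held for TTG1, the partner of TT2 and TT8 (73.4 ± 6.68 and 65.5 ± 15.2, adjusted p = 0.657, exact permutation). TTG2, a WRKY factor, did not overlap (69.3 ± 7.37 and 34.1 ± 19.4) but was not called (adjusted p = 0.0729, exact permutation). In the flavonol and anthocyanin branch 2 of 8 were called higher and 1 lower. CHIL, a chalcone isomerase-like protein, averaged 74.0 ± 9.41 in seed coat and 12.6 ± 15.6 in root lists, and UGT78D1, a flavonol rhamnosyltransferase, 89.1 ± 4.91 and 1.22 ± 3.44. OMT1, a methyltransferase, was the gene called lower, with 71.2 ± 9.22 in seed coat and 96.5 ± 2.17 in root lists. FLS1, flavonol synthase, did not overlap but was not called (96.6 ± 1.19 and 88.0 ± 6.90, adjusted p = 0.13, exact permutation).

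Of the proanthocyanidin genes 2 of 6 were called higher: TT10, a laccase (53.9 ± 39.6 in seed coat and 0 in all root lists), and GSTF12, a glutathione transferase (11.9 ± 9.02 and 0). Of the phenylpropanoid genes 1 of 8 was called higher, PAL4, a phenylalanine ammonia-lyase (83.3 ± 7.34 in seed coat and 9.55 ± 6.81 in root lists). Beside DFR, its downstream partner LDOX was not called (87.0 ± 2.13 in seed coat and 75.3 ± 12.4 in root lists), nor was BAN, an anthocyanidin reductase (6.39 ± 11.1 and 9.86 ± 19.2). The genes UGT75C1, TT15 and PAP2 had no peak in any list. Seed coat-only sites were found at 13 of the 37 genes and root-only sites at 2, PAL2 and OMT1, where 11.6% of all genes had a seed coat-only and 10.7% a root-only site. Of the 13 genes, 9 were regulators. In open base pairs 11 of 37 were called higher and 1 lower, where 7.88% of all genes were called higher and 6.28% lower.

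**Figure D5:**
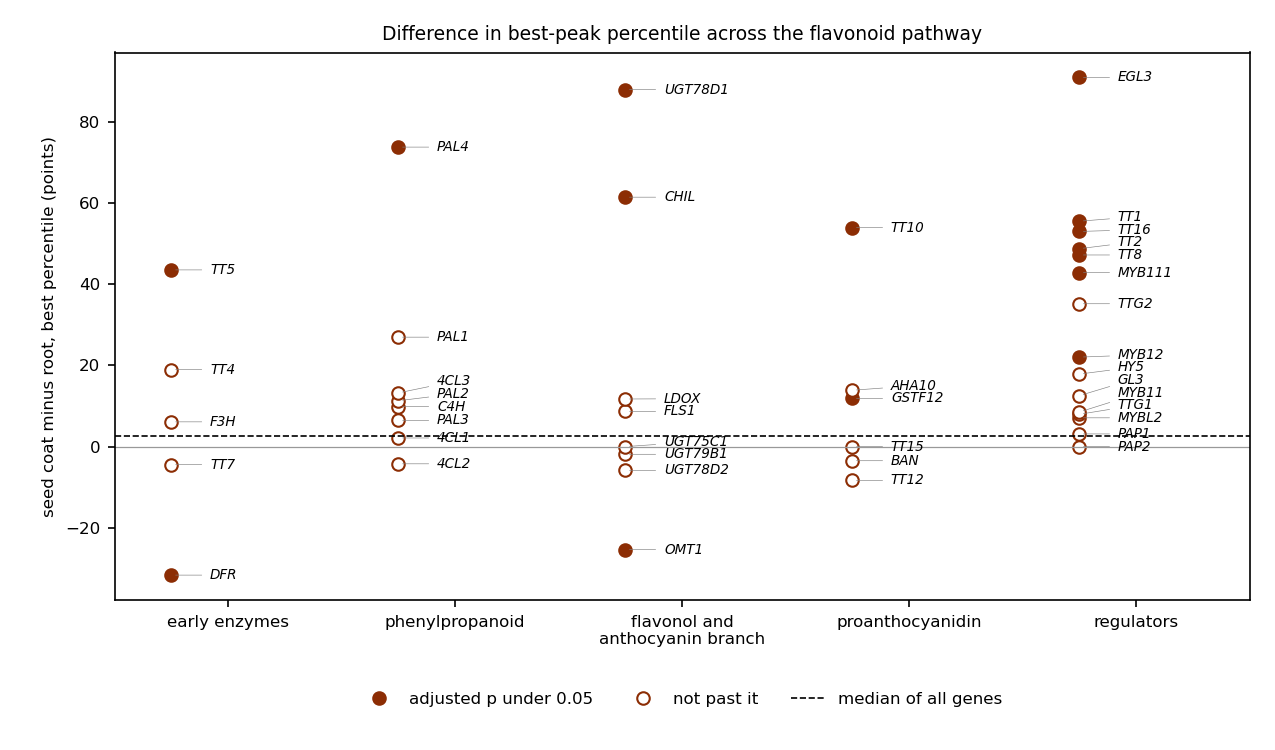
Difference in best-peak percentile, seed coat minus root (points, vertical axis), for the 5 early enzyme genes and the 4 other groups of the pathway. Filled points passed an adjusted p of 0.05, open points did not, and the dashed line is the median of all genes, 2.54 points. DFR, at -31.6, lies lowest of the genes plotted.

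The genes with the most similar best percentiles over the 11 lists, by mean absolute difference, were AT5G66600 and AT4G28706 for DFR (5.60 and 5.61 points) and AT1G24256 and NPGR2 for TT5 (5.93 and 6.84 points). For TT4 they were the adjacent pair AT1G56040 and AT1G56045 (5.96 points each), for F3H the pair AT4G39630 and GGT1 (2.75 points each) and for TT7 the pair CCR1 and AT4G39270 (1.96 points each), and within each pair the values were identical.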

How the data were processed

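Open chromatin was measured by DNase-seq in 17 samples, 2 of them runs of the same 4 DPA seed coat library with identical lists, counted once. TAIR10 and Bowtie 0.12.7 are named, without a role, in the submitters' processing notes, and the peak caller is not given in the sources used here. The deposited peak lists carry a score per peak, a whole number made by the authors and used here only to rank peaks within a list. Read depth is unknown beyond the marks 6.8M and 6.65M, and the signal tracks and −log10 p values were not used here.

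Score percentiles (mid-rank, Python 3.11.15, numpy 2.4.6), covered base pairs and merged sites on the 5 nuclear chromosomes were computed from 22 lists. Exact two-sided permutation tests of the difference in means over lists were adjusted by Benjamini-Hochberg over all genes or sites at a threshold of 0.05, and were tested on simulated data. Gene models came from RefSeq's TAIR10.1 annotation. The genes named are the 5 enzymes, other pathway genes whose seed coat and root lists do not overlap, and for each enzyme the 2 genes with the most similar values. LDOX, BAN, PAL2, MYB11, TTG1 and the genes with no peak are named outside that rule, after their values were seen, as is the wider look at single sites beyond the window. The members and lists were chosen with earlier results of these data known. Alternatives covered re-ranking, windows, the 6.65M lists, lists left out and pooled lists left out.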

Additional observations from a re-analysis of the deposited data

Results flagged for a closer look

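Among the 4 non-hair lists, 27 sets of values with any spread (best percentile, open base pairs and site percentiles) were examined for a list far from the other 3, and 10 were found. Open base pairs come in steps of a peak's length, and a site listed in a single non-hair list stands apart by construction. All of the 10 except the TT4 5′ UTR site were of these kinds, so the usual rate of about 1 in 20 does not apply to this count.

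At the TT4 5′ UTR site, the one most open in seed coat, non-hair replicate 1 had a peak at percentile 42.4 and the other 3 lists 0 to 4.18. Replicate 1 also alone had the TT7 site 552 bp upstream at 15.3, the DFR site 2036 bp downstream at 3.06, and so an added DFR peak, with 450 bp open in all. Replicate 2 alone had the TT4 site 140 bp upstream at 9.81, and it covered 150 bp at TT7, where the other 3 lists covered 300 bp. Replicate 3 alone had the TT7 intron site at 17.6. Replicate 4 alone had the TT5 5′ UTR site at 9.15, the TT5 downstream site at 19.9 and a TT7 coding-exon site 1308 bp from the TSS at 36.6. Replicate 4 had the longest non-hair list, with 29089 peaks, and the part of list length in these peaks was not tested. The list of replicate 1 with no mark had no peak at the TT4 5′ UTR site. It had the TT5 5′ UTR site at 19.1, the TT5 downstream site at 12.9 and the TT7 intron site at 0.419. It kept the TT7 site 552 bp upstream, at 26.1, and the DFR site 2036 bp downstream, at 22.1. Some of these peaks thus change with the list used for a replicate.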

How the results depend on the processing

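The number of the 5 genes called in best percentile, 2, was 2 with equal numbers of best peaks, the 6.65M seed coat lists, the shorter window and genes with a peak. It was 1 with only peaks above each list's median score, 0 without the pooled lists and 0 in the single-library lists with no mark, and 0 to 2 with each list left out. The number called in open base pairs, 2, was 0 with only peaks above each list's median score, 0 with the window from 1000 bp upstream, 0 without the pooled lists, 0 in the lists with no mark, and 0 to 0 with each list left out. The 9 called sites were 0 without the pooled lists, 0 in the lists with no mark and 0 to 9 with each list left out. Without the pooled lists, in the lists with no mark or with a seed coat list left out, fewer labellings exist, so these counts of 0 follow from the smallest p that the lists allow. For open base pairs this also holds with a root list left out, the window from 1000 bp upstream and only peaks above each list's median score. F3H and TT7 had the smallest possible p there, and its adjusted value was over 0.05. Genes with a seed coat-only site were 2, and 1 with the window from 1000 bp upstream. Genes with a root-only site were 0, and 1, DFR, with only peaks above each list's median score. No called value of a single gene or site changed sign in any alternative. The windows from 3000 bp upstream, the lists with no mark and all alternatives by site were chosen after seeing the data. No paired analysis was possible because no label ties libraries of different tissues to each other. Depth limits the lists with no mark, whose read numbers are unknown.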

Other observations

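Past the 3′ side of the TT5 window, a site 2532 bp from the TSS of TT5 was listed in all 3 seed coat lists (51.4 in the 7 DPA pool, 71.6 in 4 DPA replicate 1 and 73.1 in the 4 DPA pool) and in 0 of 8 root lists. It is nearest to the TSS of ABCG18, 1682 bp away, on whose upstream side it lies. In the lists with no mark it had 37.9 in open flowers and 27.0 in unopened flowers, and 77.8 in 4 DPA replicate 1. Downstream of TT7, in the 5′ UTR of its neighbour E13L3, a peak was listed at 21.8 in 4 DPA replicate 1 and, in the lists with no mark, at 27.0 in unopened flowers.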
